A study of Mus musculus with 16 samples.

Results

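The miRNAs described here are mmu-miR-298-5p, mmu-miR-296-5p and mmu-miR-296-3p (written without the mouse prefix below), the mature products with counts from the neighbouring Mir296 and Mir298 hairpins of the imprinted Gnas region. They were chosen by name, as 3 of the 1978 mature miRNA names counted in 16 small RNA libraries of mouse blastocyst fragments, and their levels in these libraries were known when they were chosen. All of their values below are therefore a description, without a test. A laser had cut each blastocyst into a polar fragment, with the inner cell mass, and a mural fragment, which is trophectoderm away from it. For either fragment there were 2 libraries of WT blastocysts at E4.5, 3 of in vivo diapaused blastocysts at EDG 7.5 and 3 of blastocysts under mTOR inhibition, labelled mTORi. In diapause the mouse blastocyst pauses its development until it can implant, and inhibition of the growth kinase mTOR is used to induce a paused state in culture. The labels give no day and no agent for the mTORi blastocysts, and for no group do they give the strain or the number of embryos in a library. Age and treatment therefore cannot be told apart in any comparison between WT, diapaused and mTORi blastocysts. Whether libraries of a group came from separate embryo collections is not given, so the spread between them may be technical. For 3 libraries, taken here as mural mTORi from their tissue and treatment labels, the title gives no part and adds the word diapaused.

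An imprinted gene is expressed mainly from the copy inherited from one parent. At the Gnas locus the paternal copy gives rise to the antisense transcript Nespas, and the miR-296 and miR-298 hairpins are known as paternally expressed products of the same region. A miRNA hairpin is cut into a 5p and a 3p arm, and either arm can enter a silencing complex, where bases 2 to 8, the seed, pair with target transcripts. miR-296 is best known in mouse embryonic stem cells, where it was described with miR-134 and miR-470 as a miRNA with sites in the coding sequences of the pluripotency factors Nanog, Oct4 and Sox2. The deposited counts do not separate the parental copies, so imprinting itself was not measured.

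The mature sequences are shown because the arms differ in seed, and counts of 2 of them come from 1 hairpin. They are from RefSeq on GRCm38.p6, written 5′ to 3′, with the seed in capitals. In the table of mature sequences, 1679 of the 1978 counted names were matched.

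miR-298-5p: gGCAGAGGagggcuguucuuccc

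miR-296-5p: aGGGCCCCcccucaauccugu

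miR-296-3p: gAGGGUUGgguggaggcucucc

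miR-298-3p: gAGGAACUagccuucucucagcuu

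No other of the 1679 mature sequences shared bases 2 to 8 with any of the 4, and each had 1 precursor in the table. Counted names without a sequence there could not be compared, and how reads were assigned to names is not given. The 3 counted members were 23 nt (miR-298-5p), 21 nt (miR-296-5p) and 22 nt (miR-296-3p) long. Their GC contents of 65.2%, 66.7% and 68.2% were above those of 87.6%, 89.0% and 92.1% of the mature sequences, whose median was 52.2%. miR-298-3p, the other arm of the Mir298 hairpin, had 0 counts in all 16 libraries together, and its GC content was 50%. Of the 4 mature products of the locus, 3 were thus detected.

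The hairpins show where the arms lie, in capitals: in Mir296 the 5p arm is followed by the 3p arm after 13 nt, and in Mir298 after 17 nt.

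Mir296: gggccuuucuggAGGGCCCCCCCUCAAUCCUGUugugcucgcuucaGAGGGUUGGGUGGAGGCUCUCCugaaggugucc

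Mir298: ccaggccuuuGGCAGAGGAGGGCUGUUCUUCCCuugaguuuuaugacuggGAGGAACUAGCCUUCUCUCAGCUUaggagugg

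Both hairpins lie on the minus strand of chromosome 2 in GRCm38. Mir296 spans chr2:174267047-174267125 and Mir298 chr2:174267504-174267585, with 378 nt between them, and they were the only 2 miRNA hairpins of the reference table within 10000 nt. No other annotated gene overlaps either hairpin, so both are intergenic in that annotation. The nearest annotated gene on the Gnas side is Nespas (minus strand, chr2:174281237-174295436), which ends 13.651 kb upstream of Mir298 in its direction of transcription, and Gnas itself (plus strand, chr2:174284320-174346744) begins 16.734 kb away. On the other side the nearest annotated gene is an unnamed miRNA model, Gm27591, at 19.051 kb.

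**Figure D1:**
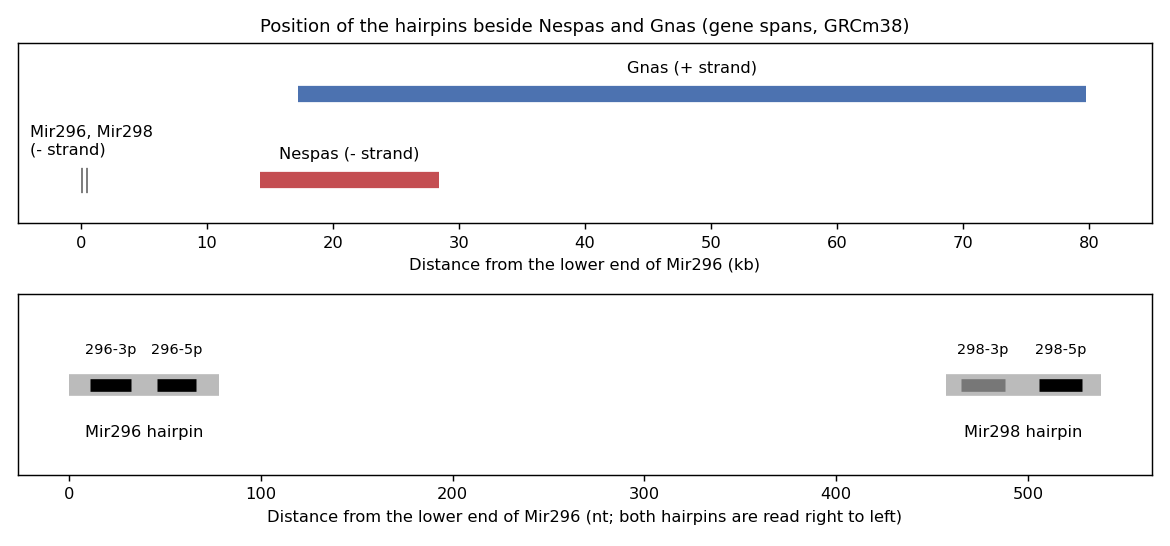
Position of the miR-296 and miR-298 hairpins, as distance from the lower end of Mir296 in GRCm38 (upper panel in kb, lower panel in nt). The upper panel shows the spans of Nespas and Gnas to the right of the hairpins, and the lower panel the 2 hairpins (light bars), the 3 arms with counts (black) and miR-298-3p, which had 0 counts (dark grey).

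The libraries held 122251 miRNA counts, 1744 to 20051 each, and WT and mTORi libraries were shallower than diapaused ones. The diapaused libraries held at least 9049 counts and the mTORi libraries at most 4386. The epiblast miRNAs of the miR-302/miR-367 cluster had 14 counts in polar WT, 15 in polar diapaused and 2 in polar mTORi, and 0 in every mural library, and 1 of its 5 names, miR-302c-3p, had 0 counts everywhere. The 2 counts in polar mTORi were both of miR-302a-3p. The trophectoderm list of miR-322, miR-351 and miR-503 had all 5 names detected in each group. It held 0.344% to 1.923% of the counts of polar and 2.629% to 7.475% of those of mural libraries. Both lists were chosen with earlier results of these data known, so these values describe the labelled parts and are no check of the labels. A pair of libraries stood apart. In polar mTORi replicate 3, miR-203-3p held 21.4% of the counts against 0.270% to 1.603% in the other 15 libraries, and in polar WT replicate 2, miR-451a, an erythrocyte miRNA, held 2.29% against at most 0.194%. Ratios of the members that either of these libraries moved by over 1.5 times or turned in direction are given with and without it.

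The 3 members were of low to middle abundance. miR-298-5p had 172 counts in 13 libraries, miR-296-5p 129 counts in 15 libraries and miR-296-3p 136 counts in 13 libraries, 437 counts in all, which placed them at ranks 81, 88 and 87 of the 1978 names by total count. Levels below, abbreviated CPM, are counts per 1000000 of the counts of the 102 tested miRNAs after scaling of the libraries with TMM factors, which equalise the bulk of the miRNAs between libraries. They are not divided by length, since a miRNA is read from end to end. The value of 1 count ran from 61.3 CPM in the deepest library to 519 CPM in the shallowest, and a count of 0 allows up to 3 counts, which is 184 to 1557 CPM. These limits and all intervals below cover counting error only. By mean CPM over the 6 groups, miR-296-3p (1408 CPM) stood at rank 79 of the 102, between miR-744-5p (1463 CPM) and miR-30e-3p (1385 CPM). miR-296-5p (1295 CPM) and miR-298-5p (1237 CPM) stood at ranks 84 and 85, between miR-141-3p (1314 CPM) and miR-379-5p (1133 CPM). The locus products were thus close to each other in mean level.

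miR-298-5p was present in WT and diapaused fragments of both parts and near the limit of detection in the mTORi fragments. In polar WT it had 2 and 10 counts (1038 and 2059 CPM), in polar diapaused 33, 8 and 35 counts (2198, 810 and 3307 CPM), and in polar mTORi 1, 0 and 0 counts (358, 0 and 0 CPM). Every polar mTORi library was below every other polar library, and how many of the tested miRNAs did so was not counted. In mural WT it had 16 and 12 counts (2493 and 1435 CPM), in mural diapaused 9, 23 and 18 counts (904, 1409 and 1508 CPM), and in mural mTORi 4, 1 and 0 counts (955, 275 and 0 CPM). The mural mTORi libraries were below both mural WT libraries, while 1 of them, at 955 CPM, exceeded the lowest mural diapaused library. The mean ± SD was 1548 ± 722 CPM for polar WT (n = 2), 2105 ± 1251 for polar diapaused (n = 3) and 119 ± 207 for polar mTORi (n = 3). In mural fragments it was 1964 ± 748 CPM for WT (n = 2), 1274 ± 324 for diapaused (n = 3) and 410 ± 492 for mTORi (n = 3). Ordered by mean, the groups ran from polar diapaused through mural WT, polar WT, mural diapaused and mural mTORi to polar mTORi, and the libraries of each neighbouring pair overlapped. In these bulk samples, fewer cells that make a miRNA and less of it in each cell cannot be told apart.

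Set against WT, miR-298-5p was lower in the mTORi fragments of both parts. With 6 counts in the 6 mTORi libraries and 40 in the 4 WT libraries, the ratio of mTORi to WT at equal scaled depth was 0.172 (95% interval 0.0595 to 0.408), and the 2 sets of libraries did not overlap. How many tested miRNAs separated in this way over both parts was not counted. Within a part, 23.5% (polar) and 24.5% (mural) of them were lower in mTORi than in WT without overlap. In polar fragments the ratio was 0.0710 (0.00166 to 0.480) from 1 against 12 counts, and in mural fragments 0.243 (0.0732 to 0.637) from 5 against 28 counts. The fitted log2 differences from edgeR, in which 2 prior counts pull low values together, were -2.26 (SE 1.70) and -1.62 (SE 0.94), and -1.94 (SE 0.97) averaged over the parts. The edgeR SEs do not take in the prior counts, so a difference over its SE is no measure of strength at low counts. In DESeq2, without such a prior, the differences were -3.63 (SE 1.43), -2.22 (SE 0.97) and -2.92 (SE 0.86). The medians of the 102 tested miRNAs were 0.16, -0.06 and -0.01 in the same comparisons. The size of these ratios rested on few libraries. Without polar mTORi replicate 1, which had the 1 polar count, the polar ratio was 0.0, from 0 counts in the remaining mTORi libraries. It was 0.110 without polar mTORi replicate 3 and 0.121 without polar WT replicate 2. Without mural mTORi replicate 1 the mural ratio was 0.0790 and the ratio over both parts 0.0736.

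Diapaused fragments did not share that low level of miR-298-5p. The ratio of diapaused to WT was 1.21 (95% interval 0.655 to 2.45) in polar and 0.691 (0.427 to 1.14) in mural fragments, with log2 differences of 0.30 (SE 0.76) and -0.51 (SE 0.68) and libraries that overlapped. Without polar WT replicate 2 the polar ratio was 2.06, and without polar diapaused replicate 3 it was 0.931, so its direction was not settled. Diapaused and mTORi fragments were also compared directly, since both are paused states. With no day labelled for mTORi, age and treatment cannot be told apart here either. In polar fragments miR-298-5p was higher in diapaused libraries by a ratio of 17.1 (2.97 to 683) from 76 against 1 counts, with no overlap, and the ratio was 11.1 without polar mTORi replicate 3. In mural fragments the ratio was 2.85 (1.14 to 9.14), with libraries that overlapped, and 8.75 without mural mTORi replicate 1. The log2 differences were 2.56 (SE 1.62) and 1.11 (SE 0.89). Depth differed with the treatment in the same direction, since the mTORi libraries were 2184 to 4386 and the diapaused ones 9049 to 20051 counts deep, and its part in the result was not tested beyond the counting intervals.

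miR-296-5p, from the neighbouring hairpin, showed no such pattern: its mTORi libraries spread from 329 to 2850 CPM and overlapped those of WT. In polar WT it had 4 and 5 counts (2076 and 1029 CPM), in polar diapaused 25, 17 and 11 counts (1665, 1721 and 1039 CPM), and in polar mTORi 3, 3 and 8 counts (1073, 1269 and 2850 CPM). The polar groups overlapped throughout, and the highest library was polar mTORi replicate 3, which stood apart by miR-203-3p. In mural WT it had 14 and 0 counts (2181 and 0 CPM), in mural diapaused 13, 7 and 5 counts (1306, 429 and 419 CPM), and in mural mTORi 8, 5 and 1 counts (1909, 1373 and 329 CPM). The mural groups overlapped too, and the mural WT libraries differed from each other more than the group means did: the 0 of replicate 2 has an exact Poisson 95% interval up to 441 CPM (359 CPM by the limit of 3 counts), against 2181 CPM in replicate 1. The mean ± SD was 1553 ± 740 CPM for polar WT (n = 2), 1475 ± 379 for polar diapaused (n = 3) and 1731 ± 974 for polar mTORi (n = 3). In mural fragments it was 1090 ± 1542 CPM for WT (n = 2), 718 ± 509 for diapaused (n = 3) and 1204 ± 804 for mTORi (n = 3). Ordered by mean, polar mTORi was followed by polar WT, polar diapaused, mural mTORi, mural WT and mural diapaused, and every neighbouring pair overlapped.

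The ratios of miR-296-5p between treatments all had intervals that held 1. Of mTORi to WT they were 1.32 (95% interval 0.534 to 3.47) in polar and 1.36 (0.601 to 3.08) in mural fragments, with log2 differences of 0.25 (SE 1.08) and 0.22 (SE 1.00). Bounds this wide do not show that the level was alike in the treatments. Of diapaused to WT the ratios were 1.13 (0.551 to 2.60) and 0.691 (0.346 to 1.44), with log2 differences of 0.04 (SE 0.99) and -0.43 (SE 0.94). Of diapaused to mTORi they were 0.850 (0.465 to 1.66) and 0.508 (0.254 to 1.06), where the polar value was 1.29 without polar mTORi replicate 3 and 1.002 without TMM scaling, and the mural value 0.330 without mural diapaused replicate 1. Single libraries turned the direction of several of the values against WT. The polar mTORi ratio was 0.876 without polar mTORi replicate 3 and 0.846 without polar WT replicate 2, and the polar diapaused ratio was 0.720 without the latter. Without mural WT replicate 2, which had the 0, the mural ratios were 0.590 for mTORi and 0.300 for diapaused, and without mural mTORi replicate 1 the mural mTORi ratio was 0.948. Without mural diapaused replicate 1 the mural diapaused ratio was 0.448.

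miR-296-3p, cut from the same hairpin as miR-296-5p, had its highest levels in WT fragments. In polar WT it had 7 and 16 counts (3633 and 3294 CPM), in polar diapaused 23, 15 and 12 counts (1532, 1519 and 1134 CPM), and in polar mTORi 2, 3 and 0 counts (715, 1269 and 0 CPM). Both polar WT libraries were above all 14 others of the series, and how many of the tested miRNAs did so was not counted. In mural WT it had 17 and 6 counts (2648 and 718 CPM), in mural diapaused 13, 8 and 9 counts (1306, 490 and 754 CPM), and in mural mTORi 5, 0 and 0 counts (1193, 0 and 0 CPM). The mural groups overlapped because mural WT replicate 2 was low. The mean ± SD was 3464 ± 240 CPM for polar WT (n = 2), 1395 ± 226 for polar diapaused (n = 3) and 661 ± 636 for polar mTORi (n = 3). In mural fragments it was 1683 ± 1365 CPM for WT (n = 2), 850 ± 416 for diapaused (n = 3) and 398 ± 689 for mTORi (n = 3). The order by mean was polar WT, mural WT, polar diapaused, mural diapaused, polar mTORi and mural mTORi, and of its neighbouring pairs the first did not overlap and the rest did. All 3 members passed the filter on low counts. miR-296-3p passed it only through WT libraries, at 1758 CPM or more in 3 libraries. miR-298-5p passed it through 4 libraries of polar WT, polar diapaused and mural WT, and through no mTORi library. The lower level of miR-296-3p outside WT and of miR-298-5p in mTORi thus goes with how they were kept.

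Against WT, miR-296-3p was lower in mTORi and in diapaused fragments. In polar fragments the ratio was 0.185 (95% interval 0.0550 to 0.498) for mTORi and 0.416 (0.249 to 0.714) for diapaused, both without overlap, with log2 differences of -2.02 (SE 1.08) and -1.15 (SE 0.79). In mural fragments the ratios were 0.296 (0.0878 to 0.795) for mTORi and 0.505 (0.283 to 0.910) for diapaused, with log2 differences of -1.42 (SE 1.08) and -0.79 (SE 0.80). The treatments share the WT libraries, so a high WT value lowers both. Over both parts the mTORi ratio was 0.249 (0.112 to 0.4998) from 10 against 46 counts, with an averaged log2 difference of -1.72 (SE 0.76) in edgeR and -2.26 (SE 0.71) in DESeq2. Without mural mTORi replicate 1, which held 5 of those 10 counts, this ratio was 0.160, and it was 0.296 without polar WT replicate 2 and 0.292 without polar mTORi replicate 3. The polar mTORi ratio was 0.286 without polar mTORi replicate 3 and 0.105 without replicate 2. The mural values rested on the WT libraries: without mural WT replicate 1 the ratio was 1.09 for diapaused and 0.641 for mTORi, and without mural WT replicate 2 it was 0.297 and 0.174. Without mural mTORi replicate 1 the mural mTORi ratio was 0.0, and without replicate 2 it was 0.444. Diapaused and mTORi libraries overlapped in both parts, with ratios of diapaused to mTORi of 2.25 (0.901 to 7.22) in polar and 1.71 (0.656 to 5.64) in mural fragments. The polar value was 3.95 without polar mTORi replicate 2 and 1.46 without replicate 3, and the mural value 1.14 without mural mTORi replicate 2.

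**Figure D2:**
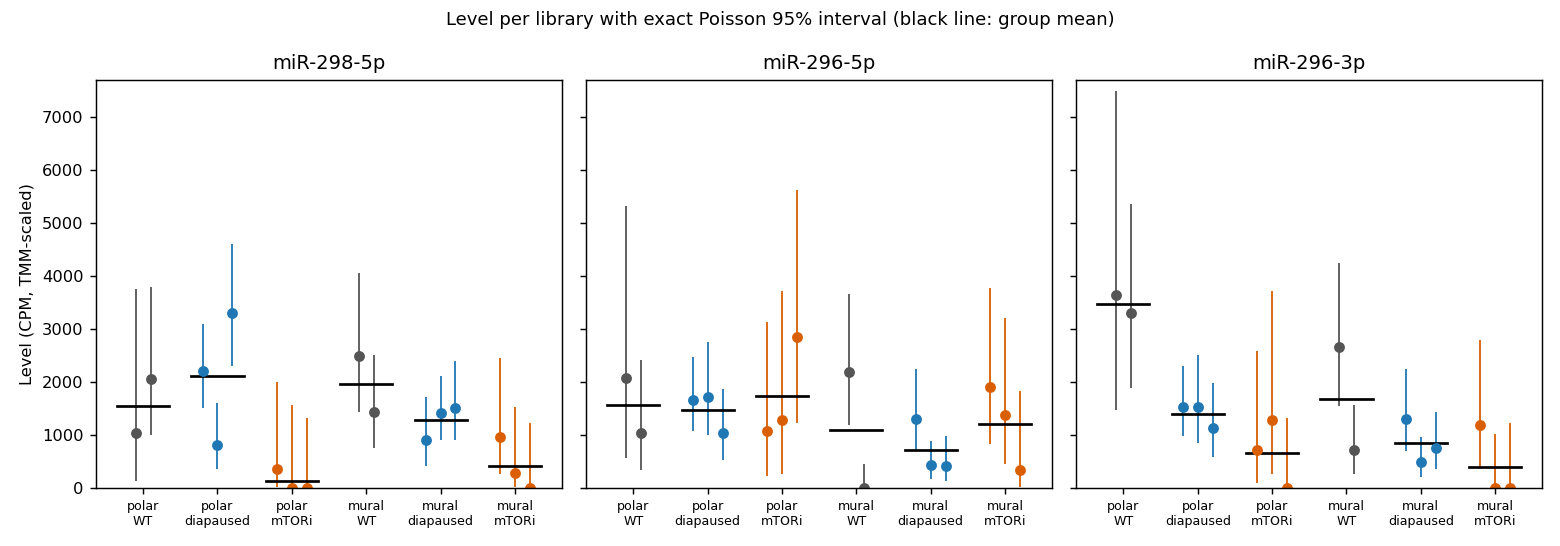
Level of miR-298-5p, miR-296-5p and miR-296-3p in each library (y axis, CPM after TMM scaling; points, with exact Poisson 95% intervals as bars; black lines, group means) in the 6 groups (x axis; grey WT, blue diapaused, orange mTORi). miR-298-5p is at 0 to 955 CPM in the mTORi libraries, miR-296-5p overlaps between all groups, and miR-296-3p is highest in the 2 polar WT libraries at 3294 and 3633 CPM.

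How many members had libraries without overlap was set beside the share of all 102 tested miRNAs that did so, since groups of 2 and 3 libraries often separate. In polar mTORi against WT, 2 of 3 members (miR-298-5p and miR-296-3p) were lower without overlap, against 23.5% of the tested miRNAs. In mural mTORi against WT this was 1 of 3 (miR-298-5p), against 24.5%. In polar diapaused against WT 1 of 3 (miR-296-3p) was lower, against 17.6%, and in mural diapaused against WT 0 of 3, against 10.8%. In polar diapaused against mTORi 1 of 3 (miR-298-5p) was higher, against 21.6%, and in mural diapaused against mTORi 0 of 3, against 29.4%. With 3 members, counts of 0 or 1 are near these shares and say nothing particular about the locus. The 2 of 3 in polar mTORi against WT is a description too. Both members were chosen with their levels known, and neither passed the filter through an mTORi library.

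Polar and mural fragments were compared to see whether the locus favoured one part, and its products were detected in both. In diapaused fragments, the deepest groups, the ratio of polar to mural was 1.64 (95% interval 1.13 to 2.39) for miR-298-5p, 2.28 (1.39 to 3.84) for miR-296-5p and 1.80 (1.12 to 2.92) for miR-296-3p. All 3 lay on the polar side, but the libraries of the 2 parts overlapped for each of them (0 of 3 higher without overlap, against 18.6% of the tested miRNAs), and the log2 differences were 0.61 (SE 0.58), 0.85 (SE 0.78) and 0.60 (SE 0.70). Without mural diapaused replicate 1 the ratio of miR-296-5p was 3.52. In WT the ratio was 0.934 (0.433 to 1.90) for miR-298-5p, 1.40 (0.535 to 3.48) for miR-296-5p and 2.18 (1.17 to 4.06) for miR-296-3p, of which miR-296-3p was higher in polar libraries without overlap (1 of 3, against 26.5%). That WT ratio of miR-296-3p was 4.73 without mural WT replicate 1 and 1.28 without replicate 2. The WT ratio of miR-296-5p was 0.608 when mural WT replicate 2 was left out and 2.19 when polar WT replicate 2 was. For miR-298-5p in WT it ran from 0.548 (polar WT replicate 2 left out) through 1.09 (polar WT replicate 1 left out) to 1.23 (mural WT replicate 1 left out). In mTORi fragments the counts of 1 and 5, 14 and 14, and 5 and 5 gave ratios of 0.273, 1.37 and 1.37 with intervals that held 1 for each member (0.421, 0.903 and 2.11 without polar mTORi replicate 3), and 0 of 3 separated, against 13.7% on the higher side and 6.86% on the lower.

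**Figure D3:**
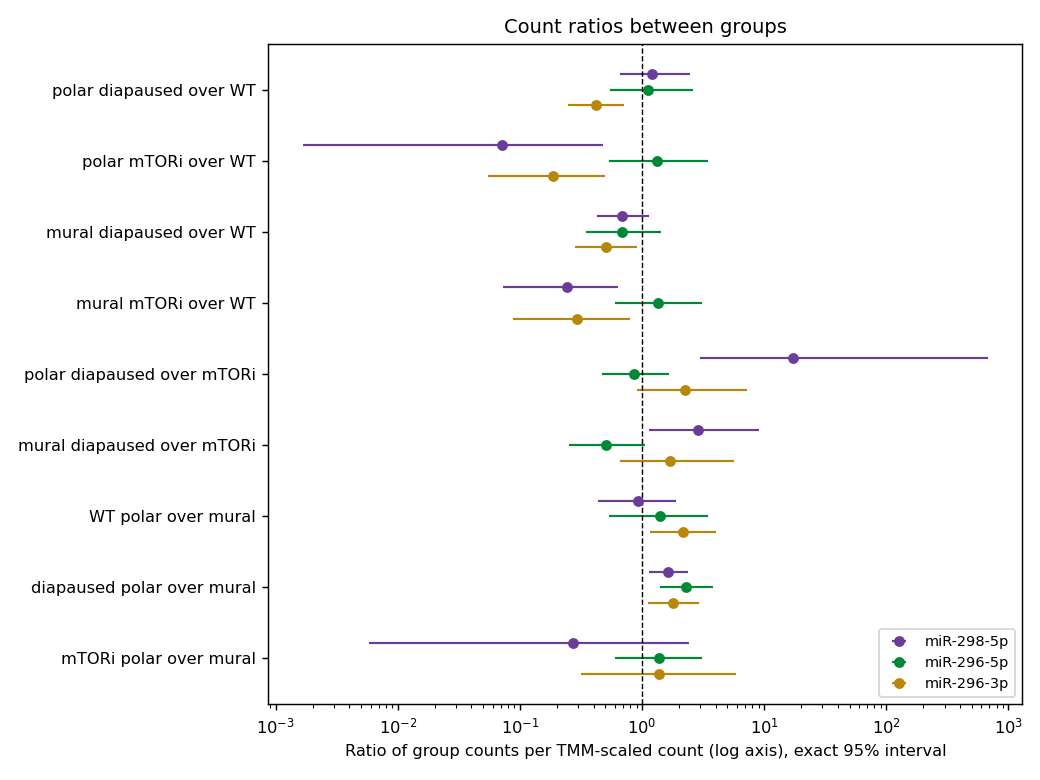
Ratio of counts between groups at equal scaled depth (x axis, log scale; points, with exact 95% intervals as bars) for each comparison (y axis) and each member (purple miR-298-5p, green miR-296-5p, ochre miR-296-3p). The mTORi over WT ratios lie at 0.0710 and 0.243 for miR-298-5p and at 0.185 and 0.296 for miR-296-3p, while the intervals of miR-296-5p hold 1 in all treatment comparisons.

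Summed over the locus, the 3 members gave 6565 ± 258 CPM for polar WT (n = 2), 4975 ± 802 for polar diapaused (n = 3) and 2511 ± 353 for polar mTORi (n = 3). The polar libraries were at 6747 and 6383 CPM in WT, at 5395, 4050 and 5480 CPM in diapaused and at 2146, 2538 and 2850 CPM in mTORi, without overlap between the groups. Of the tested miRNAs, 17.6% were lower without overlap in polar diapaused than in WT and 23.5% in polar mTORi than in WT. In polar diapaused against mTORi, 21.6% were higher without overlap. The sum includes miR-296-3p, which passed the filter through WT libraries only, and miR-298-5p, which passed it through no mTORi library. In mural fragments the sum was 4737 ± 3655 CPM for WT (n = 2), 2842 ± 610 for diapaused (n = 3) and 2011 ± 1891 for mTORi (n = 3), and these overlapped. In counts pooled over libraries, miR-298-5p was 36.7% of the sum in WT (40 of 109 counts, exact 95% interval 27.7% to 46.5%), 44.4% in diapaused (126 of 284 counts, 38.5% to 50.4%) and 13.6% in mTORi libraries (6 of 44 counts, 5.17% to 27.4%). Without mural mTORi replicate 1, which held 4 of those 6 counts, the mTORi share was 7.41%. By part the pooled share was 27.3% in polar and 43.1% in mural WT, 42.5% and 47.6% in diapaused, and 5% and 20.8% in mTORi, with a single count behind the polar mTORi value. Single libraries of the treatments overlapped in this share. miR-298-5p had 2 of 13 counts in polar WT replicate 1 and 8 of 40 in polar diapaused replicate 2. Both shares were below that of mural mTORi replicate 1, with 4 of 17 counts.

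The 2 arms of the miR-296 hairpin were compared within each library, where depth and scaling cancel. The 5p arm was 33.3% of the counts of both arms in WT (23 of 69, exact 95% interval 22.4% to 45.7%), 49.4% in diapaused (78 of 158, 41.3% to 57.4%) and 73.7% in mTORi libraries (28 of 38, 56.9% to 86.6%). Per library it ran from 0% to 45.2% in WT (median 30.1%, n = 4), from 35.7% to 53.1% in diapaused (median 48.9%, n = 6) and from 50% to 100% in mTORi (median 80.8%, n = 6). Every mTORi library was thus above every WT library, while the diapaused libraries overlapped both. The parts gave like values: 73.7% (14 of 19 counts) in both polar and mural mTORi, 28.1% (9 of 32) and 37.8% (14 of 37) in polar and mural WT, and 51.5% (53 of 103) and 45.5% (25 of 55) in polar and mural diapaused. Leaving out single libraries gave 66.7% to 80.0% in mTORi, 48.2% to 50.7% in diapaused and 23.7% to 37.5% in WT, where 66.7% is the value without polar mTORi replicate 3. Some of these libraries held very few counts of the hairpin, with 1 count in mural mTORi replicate 3 and 5 or 6 in 3 other mTORi libraries.

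The same share was computed for the other hairpins with enough counts of both arms, 50 in all and at least 10 of each, a limit chosen after the data were seen. Among these 34 hairpins the share of the 5p arm in mTORi minus that in WT ran from -42.9 to 15.7 percentage points, with a median of -1.596, against 40.4 points for miR-296. With miR-296 included, 1 of 35 hairpins (2.86%) had every mTORi library above every WT library, and that 1 was miR-296. Hairpins read almost only from the 5p arm in WT, such as miR-30a (100%), miR-10b (99.4%) and miR-99b (95.4%), could not rise by 40.4 points. As miR-296 was chosen with its values known, its place among the 35 is a description and does not show that its shift is rare. In the other direction, miR-324 alone had every mTORi library below every WT library, at -42.9 points. The arm shares come from the same counts of miR-296-5p and miR-296-3p as the levels above and are not a further measurement.

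**Figure D4:**
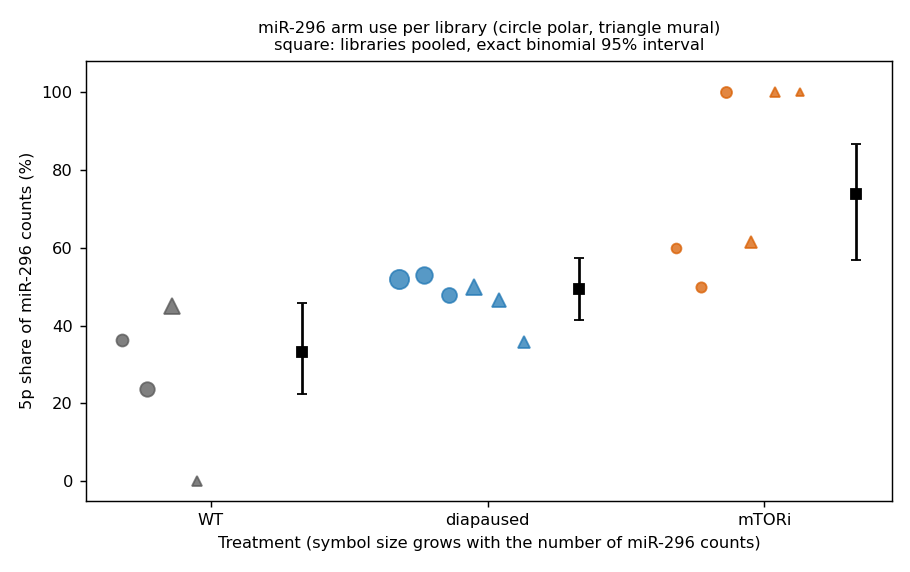
Share of the 5p arm in the counts of both miR-296 arms (y axis, percent) in each library by treatment (x axis; circles polar, triangles mural, larger for more counts), with black squares for the pooled libraries and bars for their exact binomial 95% interval. The pooled share is 33.3% in WT, 49.4% in diapaused and 73.7% in mTORi, and the mTORi libraries, at 50% or more, lie above the WT libraries, at 45.2% or less.

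Across the 16 libraries, which differ in part, treatment and depth together, the members were compared in log2 CPM as a description. miR-298-5p and miR-296-3p, which come from different hairpins, were alike (Pearson r 0.647, Spearman rho 0.518). miR-296-5p was little like miR-296-3p of its own hairpin (r 0.248, rho 0.348) or miR-298-5p (r -0.0906, rho -0.109). Of the other tested miRNAs, the 3 most like miR-298-5p were miR-466f-3p (r 0.859, rho 0.794), miR-1981-5p (r 0.783, rho 0.725) and miR-291a-5p (r 0.781, rho 0.661). For miR-296-3p they were miR-17-5p (r 0.850, rho 0.752), miR-466f-3p (r 0.736, rho 0.575) and miR-672-5p (r 0.713, rho 0.678), so that miR-466f-3p stood in both sets. For miR-296-5p the likeness was lower, with miR-191-5p (r 0.509, rho 0.5), miR-379-5p (r 0.482, rho 0.331) and miR-423-5p (r 0.472, rho 0.521).

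The leading neighbours of miR-298-5p and miR-296-3p are given as a description. They were chosen by their likeness in these same libraries, so a like order of groups follows in part from the choice. miR-466f-3p, a product of the Sfmbt2 miRNA cluster, was at 2273 ± 279 CPM for polar WT (n = 2), 2384 ± 104 for polar diapaused (n = 3) and 379 ± 360 for polar mTORi (n = 3). Its mural levels were 2424 ± 124 CPM for WT (n = 2), 1257 ± 196 for diapaused (n = 3) and 452 ± 112 for mTORi (n = 3), which is the order of miR-298-5p within each part. miR-17-5p, of the growth-promoting miR-17/miR-92 cluster, was at 4811 ± 1271 CPM for polar WT (n = 2), 1871 ± 585 for polar diapaused (n = 3) and 781 ± 683 for polar mTORi (n = 3), the order of miR-296-3p in that part. Its mural levels were 1197 ± 510 CPM for WT (n = 2), 2035 ± 509 for diapaused (n = 3) and 690 ± 449 for mTORi (n = 3), where miR-296-3p was highest in WT, so the orders differed there.

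Other imprinted loci gave few counts. None of the 6 mature miRNAs of H19 (miR-675), Igf2 (miR-483) and Mest (miR-335) passed the filter, so 0 of 6 could be tested. miR-483-5p, from an intron of Igf2, had 4 counts in polar WT, 26 in polar diapaused and 0 in polar mTORi, and 1, 2 and 2 in the mural groups, and miR-483-3p had 2, 25 and 6 in polar and 2, 9 and 1 in mural libraries. In diapaused fragments the ratio of polar to mural was 14 (95% interval 3.51 to 122, from 26 against 2 counts) for miR-483-5p and 2.99 (1.35 to 7.29) for miR-483-3p. miR-335-5p, from an intron of Mest, had 3, 6 and 0 counts in polar and 3, 0 and 1 in mural libraries. miR-675-3p had 1 count in all and miR-675-5p had 0.

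The imprinted Dlk1-Dio3 cluster, expressed from the maternal copy, was a contrast to the Gnas locus in where it was detected. Summed over its 104 names by position, 4 of which were tested, it had 93 counts in polar WT, 366 in polar diapaused and 80 in polar mTORi, against 5, 3 and 3 in the mural groups. The ratio of polar to mural was 40.5 (95% interval 16.8 to 128) in WT, 131 (44.6 to 640) in diapaused and 36.4 (12.0 to 180) in mTORi. For the 3 Gnas members together it was 1.48 (0.983 to 2.20) in WT, 1.84 (1.44 to 2.36) in diapaused and 1.14 (0.596 to 2.15) in mTORi, and the intervals of the 2 loci lay far apart in each treatment.

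Of the miRNAs described with miR-296 for sites in pluripotency factors, miR-134-5p, itself of the Dlk1-Dio3 cluster, had 7 counts in polar WT, 3 in polar diapaused and 3 in polar mTORi, and 0 in mural libraries. miR-470-5p had 351 counts and was the 1 tested name of this list. It was at 927 ± 1310 CPM for polar WT (n = 2), 3696 ± 1713 for polar diapaused (n = 3) and 3484 ± 994 for polar mTORi (n = 3). In mural fragments it was at 2279 ± 1681 CPM for WT (n = 2), 3402 ± 1145 for diapaused (n = 3) and 2119 ± 1067 for mTORi (n = 3). Its log2 difference from WT was 1.45 (SE 0.80, edgeR adjusted p = 0.190) in polar diapaused and 1.38 (SE 0.84, edgeR adjusted p = 0.157) in polar mTORi. In mural fragments it was 0.50 (SE 0.64, edgeR adjusted p = 0.700) for diapaused and -0.09 (SE 0.70, edgeR adjusted p = 0.95039) for mTORi. The 9 counts of polar WT were all in replicate 2. Without replicate 1 the polar differences were 0.74 and 0.78, and without replicate 2, which leaves WT at 0, the fitted values were 3.76 and 3.79 and depend on the prior count. In all libraries it was called in 0 of these 4 comparisons, in which 5.88%, 12.7%, 7.84% and 5.88% of the tested miRNAs were called higher in turn and 1.96%, 9.8%, 1.96% and 5.88% lower. 

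Markers of other cell types were counted beside the members. The erythroid list had 0.115% to 2.41% of the counts in polar WT and at most 0.275% in any other group, with 115 of the 199 counts of miR-451a in polar WT. Without polar WT replicate 2, which held 113 of them, the ratio of polar mTORi to WT was 0.173 for miR-296-3p against 0.185 with it, and of polar diapaused to WT 0.388 against 0.416. The leukocyte list ran from 0% to 0.304% in polar WT, diapaused and mTORi libraries and to 0.115% at most in mural ones. The stromal list, for uterine and connective tissue, held 0.0316% to 0.321% of each library. Its miR-143-3p had 111 counts, found in every group and with 61 in mural diapaused. Of its other names, miR-145a-5p had 5 counts, miR-214-3p had 1, and miR-199a-3p and miR-199a-5p had 0. Of the neural and endocrine list, miR-124-3p, miR-9-5p and miR-7a-5p had 0 counts and miR-375-3p had 14, all in mural diapaused libraries. The early embryo list of the miR-290 cluster held 26.7% to 52.5% of each library, and its polar shares were 48.3% to 52.5% (WT), 36.1% to 43.3% (diapaused) and 26.7% to 41.5% (mTORi). Mural libraries held 47.6% to 47.7% in WT, 46.7% to 48.5% in diapaused and 38.3% to 40.7% in mTORi. As a sum, the list was thus lower in mTORi than in WT in both parts, as miR-298-5p and miR-296-3p were, and lower in polar diapaused than in polar WT, where miR-298-5p was not. Its names did not all go with the sum. In polar WT and mTORi miR-294-3p had 623 and 810 raw counts and miR-295-3p 93 and 130. The other names and the whole list (3438 and 3054) had fewer in mTORi. The shares are of all counts without TMM scaling, and miR-203-3p held 21.4% of polar mTORi replicate 3. The part of the list in the members' values was not tested.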

How the data were processed

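Small RNA libraries were made, per the labels' protocols, with adapters that carry molecular identifiers and 12 to 20 PCR cycles, without size selection, and read at 75 nt. The deposited counts are whole numbers per mature miRNA name, not normalized. The build in the submitters' processing notes is GRCm38. Not given in the sources used here are the aligner, the counter, the annotation version and whether reads sharing an identifier were merged. The members and lists were chosen with earlier results of these data known, so members got no test.

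Groups follow the labelled tissue and treatment. In R 4.3.3 with edgeR 4.0.16, filterByExpr (minimum count 10, minimum total 15) kept 102 names, which held 92.83% to 97.61% of a library's counts. The TMM factors ran from 0.818 to 1.26. A quasi-likelihood model with a mean per group was fitted over all 16 libraries (10 residual degrees of freedom, common dispersion 0.142, prior count 2), and it was tested on simulated data. Calls, two-sided, used a Benjamini-Hochberg adjusted p under 0.05 over the tested names. SEs are from the fit without the prior count, while the edgeR log2 differences include it. The SE therefore stays the same when the prior count changes the difference. Ratios are group counts over the summed scaled depth, with exact conditional 95% intervals. Intervals of CPM are exact Poisson and those of shares exact binomial (Clopper-Pearson). Sequences are from RefSeq. The named miRNAs were the members, the lists, the 3 tested miRNAs most correlated with each member and the neighbours in mean CPM; miR-203-3p and miR-324 were named after their values were seen, and miR-451a is of the erythroid list. No replicate pair was as close as sampling noise (chi-square per degree of freedom 1.995 to 21.671), so none was merged. Alternatives were RLE size factors, library size alone, DESeq2 1.42.0, no filter, other prior counts, only the groups compared, a replicate block and leaving out each library.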

Additional observations from a re-analysis of the deposited data

How the results depend on the processing

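Of the 30 member differences (log2, edgeR), RLE factors, library size alone, no filter and the replicate block moved none by more than the replicate SD, and with only the groups compared none of 14 moved. That SD was wide, at 0.746 (miR-298-5p), 0.956 (miR-296-5p) and 0.946 (miR-296-3p) log2, and signs could turn within it. For miR-296-5p, polar diapaused minus WT went from 0.04 to -0.06 with RLE factors. Its polar diapaused minus mTORi went from -0.20 to 0.02 with library size alone. The lowest counts set the values that moved. For miR-298-5p in polar mTORi minus WT the value was -3.16 with a prior count of 0.5, -1.51 with 5 and -3.63 in DESeq2. In polar diapaused minus mTORi it was 3.48, 1.77 and 3.87, in mTORi polar minus mural -1.68 in DESeq2, and averaged over parts in mTORi minus WT -2.92 in DESeq2. Leaving out single libraries gave -1.41 to -0.061 for miR-298-5p in mTORi polar minus mural. For miR-296-5p it gave -1.39 to 1.79 in mural diapaused, -0.76 to 2.43 in mural mTORi and -0.26 to 1.33 in averaged mTORi, each minus WT, and -0.63 to 2.56 in WT polar minus mural, with mural WT replicate 1 or 2 at the ends. For miR-296-3p it gave -1.46 to 0.17 in mural diapaused and -2.80 to -0.46 in mural mTORi, each minus WT, 0.092 to 1.98 in mural diapaused minus mTORi and -0.39 to 1.92 in mTORi polar minus mural. Where 1 library was left in a group, it is assumed to vary like the other groups. The ratios without single libraries, an alternative chosen after seeing the data, ran for miR-298-5p from 0.0 to 0.121 (polar mTORi over WT) and 0.0 to 0.839 (mTORi polar over mural). They ran for miR-296-5p from 0.300 to 0.868 (mural diapaused over WT) and 0.590 to 1.75 (mural mTORi over WT), and for miR-296-3p from 0.297 to 1.09, 0.0 to 0.641 and 1.28 to 4.73 (WT polar over mural). All counts of a library as depth, without TMM and also chosen after seeing the data, moved 0 of 29 ratios outside their 95% intervals. The share of miR-298-5p in the locus counts without single libraries, also chosen after seeing the data, ran from 7.41% to 16.7% in mTORi, 40.3% to 48.4% in diapaused and 30.8% to 39.6% in WT.

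The counts of miRNAs called (8, 23, 10 and 12 in polar diapaused, polar mTORi, mural diapaused and mural mTORi, each against WT) were 15 in DESeq2 and 13 with RLE factors for polar diapaused, 5 with library size alone and 5 with RLE factors for mural diapaused, and 2 and 22 with only the groups compared for polar and mural mTORi. Without single libraries they ran from 2 to 7, 4 to 28, 0 to 6 and 6 to 8. The 0, in edgeR without mural WT replicate 2, had 10 of 120 tested miRNAs at an unadjusted p under 0.05. The log2 difference of miR-470-5p in mural mTORi minus WT, -0.09, was 0.19 without mural mTORi replicate 2, 0.19 without replicate 3 and 0.77 without mural WT replicate 2, and ran from -0.60 to 0.77 over all libraries left out. The cause of these shifts was not tested.

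Replicate numbers are shared between polar and mural libraries. Deviations of same-numbered libraries correlated at -0.0114 to 0.364, not above 0.1 in every pair, and 6 of 8 polar libraries correlated best with their own number. In WT, with 2 libraries per group, the deviations mirror each other. The WT replicates 1 and 2 thus gave the same correlation by construction and are not separate cases. Whether same-numbered fragments came from the same embryos is thus not settled. The main fit, the ratios of polar to mural and the values over both parts treat the libraries as independent, which may not hold. With the replicate block 7, 24, 14 and 14 miRNAs were called.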
